A study of Mus musculus with 2 samples.

Results

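EP300, a histone acetyltransferase that works as a transcriptional co-activator at promoters and enhancers, was mapped by ChIP-seq (sequencing of the DNA that an antibody pulls down with the protein) in the stomach of newborn mice (strain B6NCrl, postnatal day 0, sex not collected), and its peaks at the genes of the epidermal growth factor (EGF) family are described here. The 10 genes are 7 ligands (Egf, Areg, Ereg, Epgn, Btc, Hbegf and Tgfa) and 3 receptors (Egfr, Erbb2 and Erbb3), out of 21938 protein-coding genes of GENCODE M21. They were chosen by family membership with earlier results of these peak lists known. Their summits were selected on position: every summit of the optimal list that lay in the gene body or within 100 kb of the gene's start. That list keeps peaks by the irreproducible discovery rate (IDR), which rates how well ranks recur. A place in it does not mean a high rank in each replicate: 42.8% of all optimal summits lay within the strongest 7737 peaks of both. Areg, Ereg, Epgn and Btc lie together on chromosome 5 and were treated as 1 locus, which gives 7 loci. The rule found 30 distinct summits among 7733 optimal summits on named chromosomes. The study holds 1 group of 2 libraries, labelled as biological replicates that share 1 biosample and 1 donor name, so their differences may be technical. Whole tissue was used, so no peak can be given to a cell type. The files hold peak lists and no read counts, so the depth of the libraries is unknown. The optimal list holds 7737 peaks, a second IDR list called conservative holds 6974, and the lists of each replicate and of the pooled reads end at 300000 peaks each.

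As background, ligands of the EGF family are made as membrane-bound precursors and are released by metalloproteases such as ADAM10 and ADAM17. They bind receptor tyrosine kinases of the ERBB family, which pair with each other and switch on the RAS and ERK cascade and the PI3K and AKT arm. ERBB2 has no known ligand of its own and serves as a partner of the other receptors, and ERBB3 binds neuregulins and has little kinase activity. In the stomach the pathway is known for growth and repair of the mucosa, and mice that make too much TGF-alpha have enlarged surface mucous layers.

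By this rule 8 of the 10 genes had an EP300 summit, and most of the summits closest to a family gene lay in introns or between genes rather than at promoters. Egf and Btc had no optimal summit. The 8 are not separate observations: Epgn, Ereg and Areg shared summits, all nearest to Epgn. The single Hbegf summit was nearest to Ankhd1. Across all 21938 protein-coding genes 49.9% had a summit by the same rule, so a count of 8 of 10 stands beside a background of about 5 of 10, and no test was made because the rule itself takes these peaks. The members had a median of 3 summits per gene, against a median of 0 over all genes, with a shared summit counted for each gene it reached. For summits nearest to the gene itself the medians were 1 and 0. Of the 30 summits, 18 were nearest to the start of a member, and these belonged to 5 genes: 6 to Epgn, 5 to Tgfa, 3 to Erbb3, 2 to Egfr and 2 to Erbb2. Those 5 of 10 stand beside 19.3% of all protein-coding genes that were the nearest start of an optimal summit. The other 12 summits lay within the windows of Erbb3, Erbb2 and Hbegf but nearer to the starts of neighbouring genes. A summit in the gene body was found for 4 members (Tgfa, Egfr, Erbb2 and Erbb3), against 12.1% of all genes. The number nearest to a member depended on the library: it was 9 among as many strongest peaks of replicate 1 alone and 23 among those of replicate 2 alone.

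The sequences under the strongest peak nearest to a member at each locus are shown as examples. The comparison of motifs further on rests on all 30 summits, not on these windows. The peak upstream of Erbb3 was added as the single one within 1 kb of a member's start, chosen after its value was seen. Each sequence runs from 100 bp before to 100 bp after the summit in GRCm38.p6 (RefSeq), plus strand. Letters are in lower case, with matches to any of the 11 motifs searched in capitals. The match is to AP-1 (TGANTCA) and TEAD (GGAATG) at Epgn, TEAD at Tgfa and Egfr, AP-1 at Erbb2, AP-1 and KLF or SP (CCNCNCCC) in intron 3 of Erbb3 and KLF or SP at its promoter, each on either strand. They lie at chr5:91038736-91038936, chr6:86180633-86180833, chr11:16777030-16777230, chr11:98419009-98419209, chr10:128584545-128584745 and chr10:128589950-128590150.
Epgn, downstream: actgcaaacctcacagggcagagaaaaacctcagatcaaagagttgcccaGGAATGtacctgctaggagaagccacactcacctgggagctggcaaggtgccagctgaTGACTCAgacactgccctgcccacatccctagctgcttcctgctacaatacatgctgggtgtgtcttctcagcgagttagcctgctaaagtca
Tgfa, upstream: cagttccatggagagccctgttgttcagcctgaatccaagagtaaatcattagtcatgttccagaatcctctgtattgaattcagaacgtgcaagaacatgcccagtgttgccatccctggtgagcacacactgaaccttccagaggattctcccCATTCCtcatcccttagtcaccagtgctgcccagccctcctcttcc
Egfr, intron 1: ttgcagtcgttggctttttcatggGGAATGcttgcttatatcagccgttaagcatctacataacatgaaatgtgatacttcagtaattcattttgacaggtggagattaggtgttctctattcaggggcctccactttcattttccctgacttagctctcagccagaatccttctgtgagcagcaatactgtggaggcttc
Erbb2, intron 1: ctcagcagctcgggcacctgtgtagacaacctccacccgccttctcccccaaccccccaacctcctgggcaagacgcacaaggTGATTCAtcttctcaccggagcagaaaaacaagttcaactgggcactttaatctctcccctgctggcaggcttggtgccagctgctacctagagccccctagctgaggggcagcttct
Erbb3, intron 3: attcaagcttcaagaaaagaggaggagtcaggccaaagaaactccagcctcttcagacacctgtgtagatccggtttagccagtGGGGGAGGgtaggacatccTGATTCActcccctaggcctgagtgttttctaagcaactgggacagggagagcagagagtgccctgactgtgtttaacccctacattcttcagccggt
Erbb3, promoter: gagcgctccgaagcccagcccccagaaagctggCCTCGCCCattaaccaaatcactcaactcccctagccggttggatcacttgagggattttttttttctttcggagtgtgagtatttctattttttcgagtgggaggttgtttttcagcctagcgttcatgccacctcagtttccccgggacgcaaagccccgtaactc

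**Figure D1:**
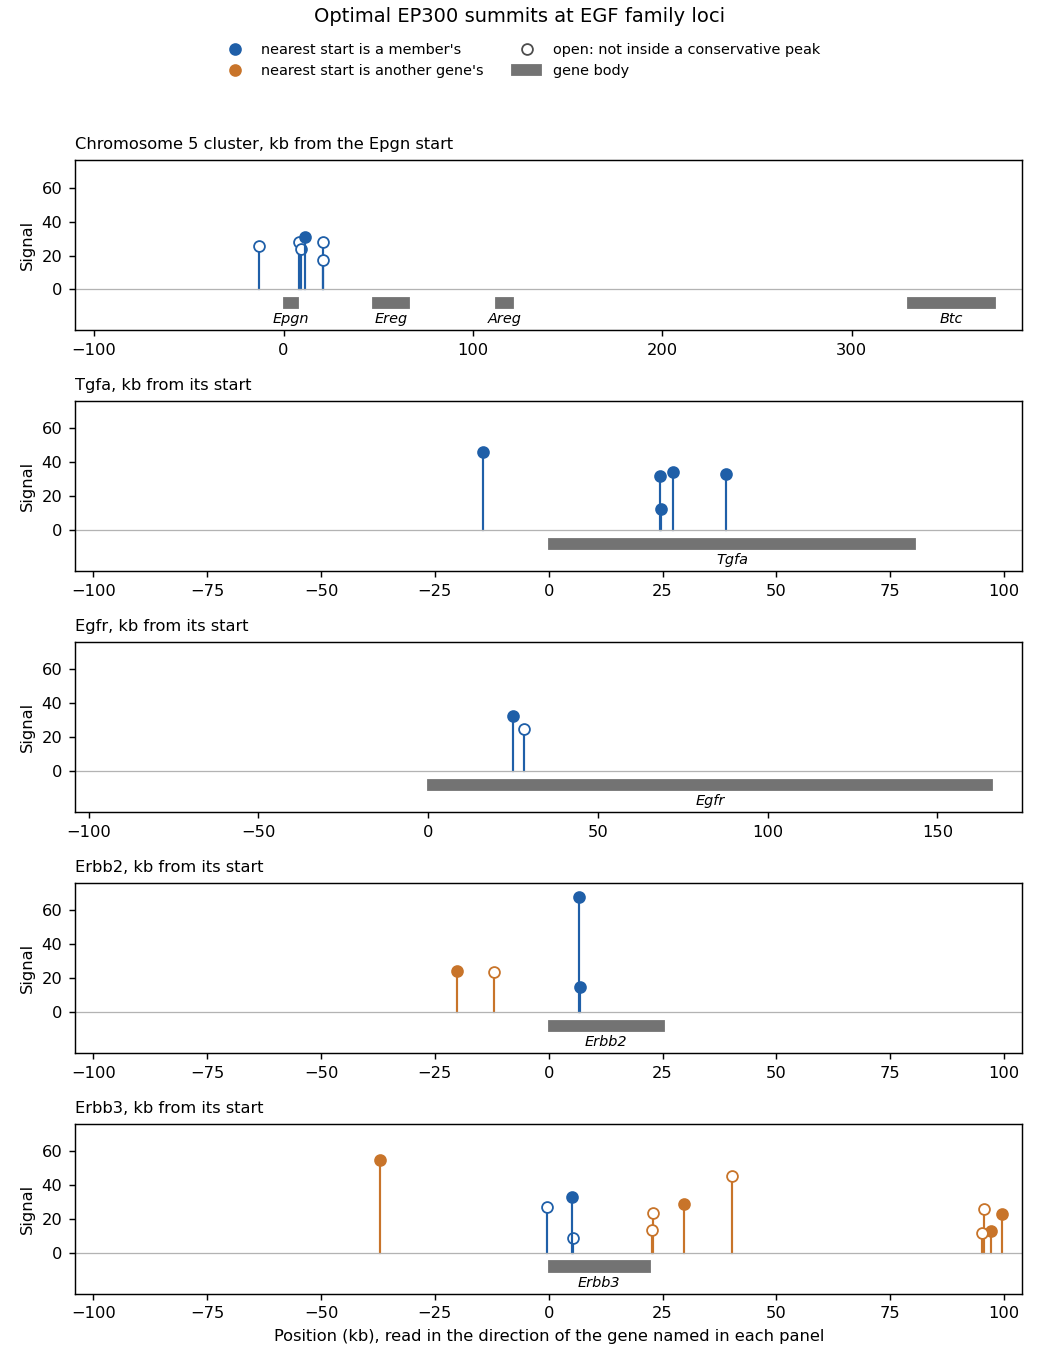
Optimal EP300 summits by distance in kb from the start of the gene named in each panel (x axis), with the peak signal in the pooled reads on the y axis. Blue summits are nearest to a member's start and orange ones to another gene's, filled points lie inside a peak of the conservative list, and grey bars are gene bodies. The highest point is the Erbb2 intron peak at 67.9, the 6 summits of the chromosome 5 cluster all stand around Epgn, and 9 of the 12 Erbb3 summits are orange.

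Of the ligands, Tgfa had the peak with the highest pooled signal among those nearest to a ligand, while in replicate 1 alone its highest value, 18.5, was close to the 18.4 of Epgn. Transforming growth factor alpha is a ligand of EGFR (mm10 chromosome 6, 86195223 to 86275719, plus strand). Its strongest peak lay 14490 bp upstream of the start, between genes (86180453 to 86181012), with a signal of 46.4 in the pooled list, 18.5 in replicate 1 and 27.5 in replicate 2. The signal is the authors' own value for each peak, and its scale differs between lists, so the replicates are better compared by rank: this peak ranked 3541 in replicate 1 and 934 in replicate 2, of 300000 each. It ranked 1224 of the optimal peaks. It was thus among the stronger part of both replicate lists.

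The other 4 Tgfa summits lay in introns of the gene. In intron 1, counted in the gene's first-numbered transcript, a peak 27293 bp past the start had a signal of 34.2 in the pooled list, 13.99 in replicate 1 and 15.8 in replicate 2. A pair of overlapping peaks at 24409 and 24611 bp past the start had pooled signals of 31.9 and 12.8 and shared the same replicate peaks, with 10.3 in replicate 1 and 22.6 in replicate 2. In intron 2, 38980 bp past the start, the signal was 33.1 in the pooled list, 10.7 in replicate 1 and 20.4 in replicate 2. The ranks of these intron peaks ran from 8283 to 21749 in replicate 1 and from 1682 to 4828 in replicate 2, so all of them stood higher in the list of replicate 2. All 5 Tgfa summits lay inside a peak of the conservative list, which itself has 4 summits for Tgfa, since the overlapping pair shared 1 of its peaks. Of the 30 summits at family loci, 16 lay inside a conservative peak (53.3%, exact 95% interval 34.3 to 71.7), against 66.9% of all optimal summits. Among as many strongest peaks of 1 library alone as the optimal list holds, Tgfa had 2 summits in replicate 1 and 7 in replicate 2. The peak upstream was in both, and replicate 1 added one 23101 bp past the start (15.8, rank 5728). The additional ones of replicate 2 lay 37630 bp upstream (signal 14.5, rank 6097) and 70043 bp downstream of the start in the gene (14.3, rank 6389).

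In the chromosome 5 cluster, all 6 EP300 summits stood at the Epgn end and none near Areg or Btc. The genes run from Epgn (91027464 to 91035215) through Ereg (91074622 to 91093646) and Areg (91139599 to 91148432), all on the plus strand, to Btc (91357261 to 91402994, minus strand), a stretch of 375.5 kb. Epgn encodes epigen, Ereg epiregulin, Areg amphiregulin and Btc betacellulin, all ligands of EGFR. The 6 summits spanned 33923 bp, 5 of them between the end of Epgn and the start of Ereg, and every one was nearer to the start of Epgn than to the start of any other protein-coding gene, although the one upstream of Epgn lay inside Mthfd2l. Since the windows overlap, the same 6 summits count for Ereg, at 26061 to 59984 bp upstream of its start, and 2 of them for Areg, at 91038 and 91254 bp upstream.

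The strongest of the 6, 11372 bp past the start of Epgn and 3621 bp past its end, had a signal of 31.0 in the pooled list, 14.5 in replicate 1 and 21.3 in replicate 2. It ranked 3638 of the optimal peaks and was the single summit of the cluster inside a conservative peak. At 8104 bp past the start, 353 bp beyond the end of the gene, the signal was 27.9 in the pooled list, 10.97 in replicate 1 and 17.8 in replicate 2. The peak 9337 bp past the start stood the other way round, with 23.8 in the pooled list, 16.1 in replicate 1 and 10.8 in replicate 2. The replicates differed most at the peak 12826 bp upstream of Epgn, in an intron of the folate enzyme gene Mthfd2l: its signal was 25.3 in the pooled list, 18.4 in replicate 1 (rank 3605) and 7.08 in replicate 2 (rank 75257). An overlapping pair at 20881 and 21097 bp past the start had pooled signals of 28.2 and 17.4, with 10.1 and 9.12 in replicate 1 and 16.5 for both in replicate 2. Of the 6, 1 lay within the strongest 7737 peaks of both replicates, against 42.8% of all optimal summits.

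Areg and Btc had peaks of their own among the strongest of replicate 2 but not of replicate 1. Of the 7737 strongest peaks of replicate 2 alone, 2 lay nearest to Areg, at 55298 bp (signal 13.4, rank 7725) and 56772 bp (21.7, rank 1884) past its start. For Btc there were 2, at 70736 bp (15.1, rank 5426) and 94635 bp (14.04, rank 6714) past its start, which lie beyond the end of the gene. A further summit in replicate 2 lay 23612 bp past the start of Ereg, also beyond its end (16.8, rank 4028). The strongest peaks of replicate 1 alone held none nearest to Areg, Ereg or Btc. The conservative list holds 1 summit for Btc, 70710 bp past its start (91332004 to 91332563), with a signal of 22.9 in the pooled list, 10.7 in replicate 1 and 15.1 in replicate 2, which the optimal list does not hold. With each replicate alone, Epgn had 3 summits in replicate 1 and 4 in replicate 2 that were nearest to its own start.

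Hbegf, which encodes heparin-binding EGF-like growth factor (chromosome 18, 36504927 to 36515805, minus strand), had 1 optimal summit, and this stood at the start of another gene. It lay 44500 bp upstream of Hbegf and 306 bp from the start of Ankhd1, in an intron of Ankhd1, with 30.5 in the pooled list and 24.6 in replicate 2 (rank 1277). In replicate 1 no summit lay inside this peak, but a peak of replicate 1 overlapped it (signal 17.6, rank 4225). The summit of that overlapping peak lay 44194 bp upstream of Hbegf and 12 bp from the start of Ankhd1. Replicate 2 alone also had a peak 11 bp inside the start of Hbegf (15.3, rank 5299), which neither the optimal list nor the strongest peaks of replicate 1 hold.

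Egf, the founding ligand (chromosome 3, 129677565 to 129755316, minus strand), had no summit in the optimal list, the conservative list or the strongest peaks of either replicate. Its strongest peak in the pooled list lay 45588 bp from the start with a signal of 17.0 and ranked 19584 of 300000. The strongest peaks in its window had 10.6 in replicate 1 (rank 19785) and 10.6 in replicate 2 (rank 15943). The nearest optimal summit lay 196948 bp away and was nearest to Elovl6, and that of Btc lay 354433 bp away at Epgn.

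Among the receptors, Erbb2 held the strongest EP300 peak nearest to any family gene. ERBB2 is the receptor that partners the others (chromosome 11, 98412470 to 98437716, plus strand). The peak lay in intron 1, 6639 bp past the start (98418829 to 98419388), with a signal of 67.9 in the pooled list, 29.7 in replicate 1 and 34.9 in replicate 2. It ranked 460 of the optimal peaks, 848 in replicate 1 and 488 in replicate 2, and lay inside a conservative peak, so both replicates placed it near the top. An overlapping peak with its summit 6840 bp past the start had a pooled signal of 14.6 and shared the same replicate peaks. The other 2 summits of Erbb2 lay upstream and nearer to other genes. At 20241 bp upstream, nearest to Pnmt, which encodes the enzyme that makes adrenaline, the signal was 24.2 in the pooled list, 10.7 in replicate 1 and 15.0 in replicate 2. At 11964 bp upstream, 16 bp from the start of Pgap3, a gene of lipid anchor remodelling, it was 23.4 in the pooled list, 9.29 in replicate 1 and 12.2 in replicate 2. With 1 library alone Erbb2 had 2 summits in replicate 1 and 3 in replicate 2, and the intron peak was among them in both.

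Egfr, the receptor of most EGF family ligands (chromosome 11, 16752203 to 16918158, plus strand), had 2 summits, both in intron 1. The stronger, 24927 bp past the start (16776850 to 16777409), had a signal of 32.4 in the pooled list, 15.4 in replicate 1 and 16.4 in replicate 2. It ranked 6159 in replicate 1 and 4266 in replicate 2 and lay inside a conservative peak. The weaker, 3323 bp further on, had 24.9 in the pooled list, 7.90 in replicate 1 (rank 58678) and 14.5 in replicate 2 (rank 6185) and lay in none. Only the stronger of the pair was thus shared at a like rank. In the strongest peaks of replicate 2 alone Egfr had 4 summits, against 2 in those of replicate 1. The additional ones of replicate 2 lay 91868 bp upstream (signal 16.0) and 96981 bp past the start (14.5), and that of replicate 1 lay 64356 bp past the start (15.2). The upstream one is close to a conservative peak with its summit 91848 bp upstream (pooled signal 20.3) that the optimal list does not hold.

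Erbb3 had the most summits of any member, 12, in 9 regions of overlapping peaks, but 9 of the 12 were nearer to the starts of other genes. As many or more summits were found for 0.479% of all protein-coding genes. ERBB3 is the neuregulin receptor with little kinase activity (chromosome 10, 128567523 to 128589652, minus strand). Of the summits nearest to its own start, the strongest lay in intron 3, 5007 bp past the start (128584365 to 128584924), with a signal of 33.0 in the pooled list, 12.8 in replicate 1 and 17.0 in replicate 2, inside a conservative peak. An overlapping peak in intron 4, 5403 bp past the start, had a pooled signal of 8.59 and 8.49 in replicate 1, and replicate 2 had no summit inside it. The peak at the promoter, 398 bp upstream of the start, had 27.4 in the pooled list, 18.1 in replicate 1 (rank 3836) and 4.59 in replicate 2 (rank 291948). This promoter peak stood near the top of replicate 1 and near the bottom of replicate 2, and its summit lay in no conservative peak. The summit base is soft-masked as repeat sequence in the reference. Of the 30 summits, 9 lay within 1 kb of the start of any protein-coding transcript (30%, against 38.2% of all), and this was the single one at a member.

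The peaks of the Erbb3 window that belonged to neighbouring genes included the 2 strongest of it. At 37020 bp upstream, in an exon of the ribosomal protein gene Rps26 and 75 bp from its start, the signal was 54.9 in the pooled list, 23.0 in replicate 1 and 31.2 in replicate 2. At 40313 bp past the start of Erbb3, 34 bp from the start of the ribosomal protein gene Rpl41, it was 45.1 in the pooled list, 6.86 in replicate 1 (rank 98352) and 36.2 in replicate 2 (rank 441). The first stood high in both replicates and the second in replicate 2 alone. Pa2g4, which encodes a protein known as ErbB3-binding protein 1, was the nearest start of 3 summits, at 22783, 22986 and 29641 bp past the start of Erbb3. The strongest of these had 28.9 in the pooled list, 16.2 in replicate 1 and 13.8 in replicate 2. The remaining 4 had the start of Myl6, a myosin light chain gene, as the nearest, and lay in introns of Myl6 (2), an intron of Myl6b (1) and an exon of Smarcc2 (1), 95129 to 99516 bp past the start of Erbb3, with pooled signals from 11.7 to 26.0. Of these 4, 2 had no summit of replicate 1 inside the peak and 1 had none of replicate 2. Strong peaks of replicate 1 still overlapped those 2, at ranks 2833 and 2697, with their summits outside them. The replicate 1 peak at rank 2697 had its summit inside another of the 4.

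The 100 kb edge of the rule decided some counts. The farthest summit inside was the Erbb3 one at 99516 bp (signal 22.9), and the nearest outside were one 100153 bp from Hbegf (22.6, nearest to Pfdn1), one 100763 bp from Areg (31.0, the strongest of the cluster) and one 106089 bp from Erbb3 (17.0, nearest to Rab5b). Within 50 kb of the start or in the body, 7 members had a summit, Areg being the one lost, against 36.7% of all genes. Within 10 kb of the start or in the body, 5 members and 13 summits were left, against 20.1% of all genes.

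**Figure D2:**
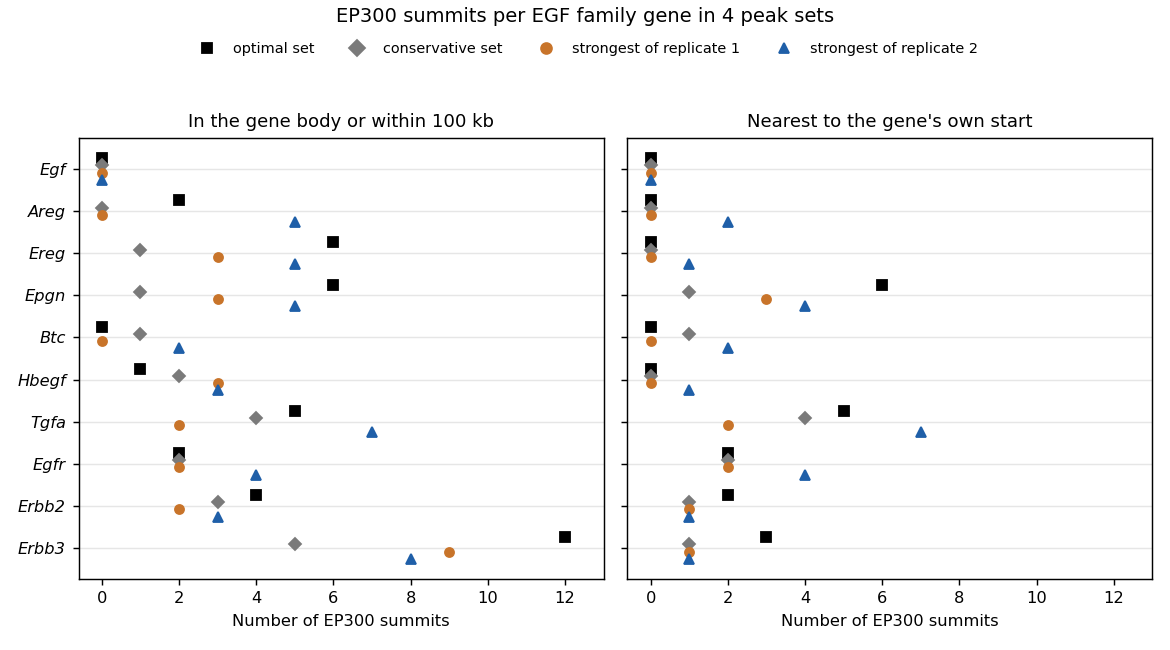
Number of EP300 summits (x axis) per EGF family gene (y axis) in the optimal list, the conservative list and as many strongest peaks of replicate 1 and of replicate 2 alone. The left panel counts all summits in the gene body or within 100 kb of the start, and the right panel those nearest to the gene's own start. Egf is at 0 in all 4 sets, Epgn has the most of its own in the optimal list with 6, and Tgfa has 7 in replicate 2 against 2 in replicate 1.

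The replicates did not place the peaks at family loci alike. Of the 30 summits, 22 lay at peaks within the strongest 7737 of replicate 2 (73.3%) and 12 within those of replicate 1 (40%), against 65.99% and 61.4% of all optimal summits. For both replicates together the count was 8 of 30 (26.7%, interval 12.3 to 45.9), against 42.8% of all. The median signal over the 30 summits was 26.7 in the pooled reads (lowest 8.59, highest 67.9), against 30.2 over all optimal summits. Over matched peaks the median was 13.4 in replicate 1 and 16.8 in replicate 2, against 17.4 and 16.9 over all optimal peaks. The replicate 1 median at family loci was thus below that of all optimal peaks, and the replicate 2 median was close to it. Single values lay on both sides, and the upper quartile in replicate 1 at family loci was 18.4. No test was made, since overlapping peaks share replicate peaks and the summits are not independent.

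**Figure D3:**
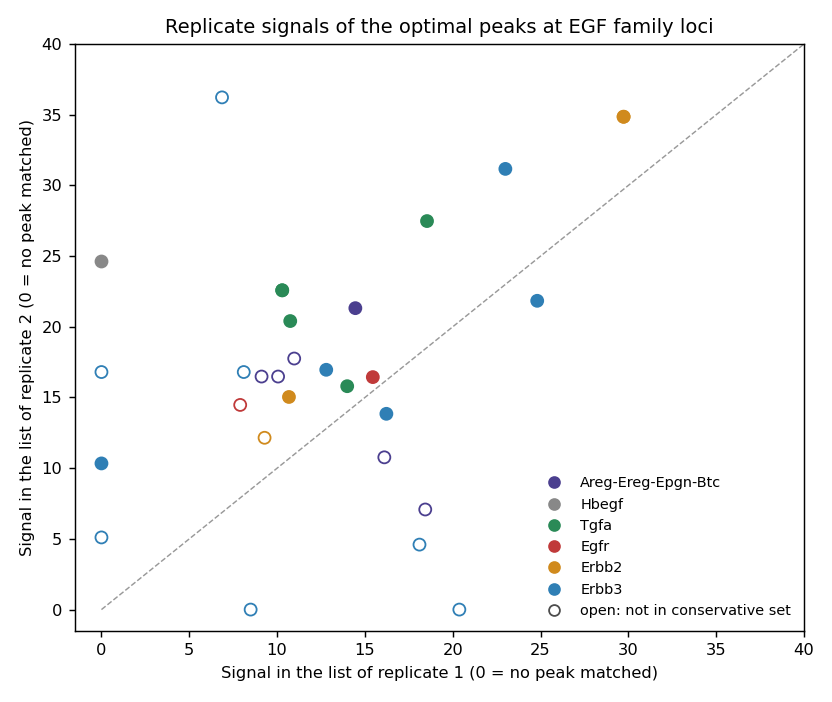
Signal of the optimal peaks at EGF family loci in the list of replicate 1 (x axis) and replicate 2 (y axis), each on the scale of its own list, with 0 where no summit of that list lay inside the peak. Colours give the locus, open points were not inside a conservative peak, and the dashed line marks equal values. The Erbb2 intron peak is at the upper right with 29.7 and 34.9, and the Erbb3 peaks at Rpl41 (6.86 and 36.2) and at the promoter (18.1 and 4.59) lie far from the line on opposite sides.

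By annotation, 17 of the 30 summits lay in introns of protein-coding genes, 11 between such genes and 2 in exons. Distal summits, over 10 kb from any protein-coding transcript start, numbered 11 of 30 (36.7%, interval 19.9 to 56.1), against 44.7% of all optimal summits. All 11 were nearest to a member: 5 to Tgfa, 4 to Epgn and 2 to Egfr. None of the 12 summits nearest to other genes was distal, and 8 of those 12 lay within 1 kb of a start. The 11 distal summits and the 12 nearest to other genes came from different loci: Epgn, Tgfa and Egfr held no summit nearest to another gene, and Erbb2, Erbb3 and Hbegf held no distal one.

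Motifs for TEAD and AP-1 factors were present at several of the peaks. AP-1 factors are the targets of growth factor and ERK signalling, and TEAD factors act with YAP. The TEAD motif was within 100 bp of 9 of the 30 summits (30%, interval 14.7 to 49.4), against 14.2% of all optimal summits. Within 50 bp it was at 4 of 30 (13.3%), against 7.85% of all. The 9 were both Egfr summits, 2 in the Erbb2 window, 3 in the Erbb3 window, the upstream Tgfa peak and the strongest Epgn peak. Of these, 6 were among the 18 summits nearest to a member (33.3%). The other 3 were nearest to Pnmt, Pa2g4 and Rps26, among the 12 nearest to other genes (25%). The Erbb2 summit at 6840 bp (signal 14.6) and the Erbb3 summit at 5403 bp (8.59) were the weaker ones of overlapping pairs. The AP-1 motif was at 5 of 30 (16.7%, interval 5.64 to 34.7), against 12.7% of all. All 5 were among the 18 summits nearest to a member (27.8%, interval 9.69 to 53.5). They were the Epgn peaks 12826 bp upstream and 11372 bp downstream of the start, the Tgfa intron peak at 24409 bp, and the intron peaks of Erbb2 and Erbb3. Of the 11 distal summits nearest to a member 3 had the motif, against 18.9% of all distal optimal summits. Distance to a start differed between the groups: 11 of the 18 were distal, against 0 of the 12 nearest to other genes. Its part in the split was not tested. In the printed windows the centre of the AP-1 match lay 11 bp from the Epgn summit, 14 bp from the Erbb2 summit and 6 bp from the Erbb3 summit. KLF and SP motifs were at 9 of 30 (30%), against 33.5% of all.

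The other motifs were rare at family loci. GRHL (AACCNGTT) was at 1 summit, in intron 1 of Tgfa, against 4.85% of all optimal summits. RUNX (TGTGGT) was at 2, against 10.9% of all, FOX (TGTTTAC) at 2, against 4.81%, and RBPJ (GTGGGAA) at 2, against 4.86%. The GATA factor motif (AGATAA) was at 1, against 8.11% of all, and ETS (CCGGAAGT) was at 1, the start of Pgap3, against 2.41%. CRE (TGACGTCA) and the CArG box of SRF were at none, which allows a share of up to 11.6% by the exact interval, against 0.815% and 1.77% of all. Intervals cover counting error only, windows of overlapping peaks share bases, and a match of letters does not show that a factor was bound. The median GC content of the windows was 51.7% at family loci and 50.7% over all.

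**Figure D4:**
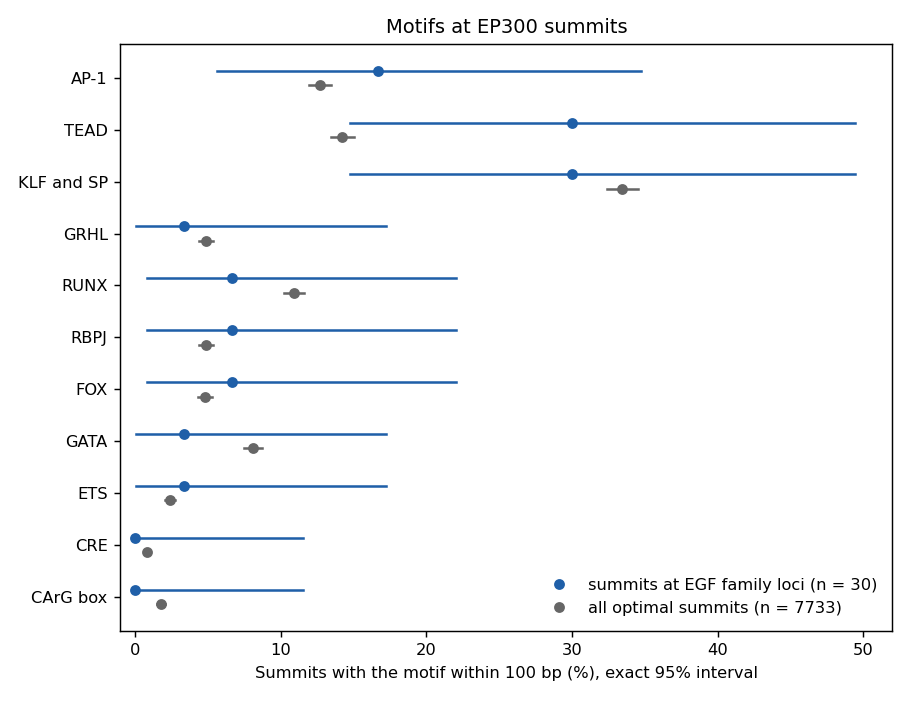
Share of EP300 summits with each motif within 100 bp (x axis, percent), for the 30 summits at EGF family loci (blue) and all 7733 optimal summits (grey), with exact 95% binomial intervals. TEAD stands at 30% against 14.2% and AP-1 at 16.7% against 12.7%, and the intervals at family loci are wide.

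Among other genes of the pathway, 21 of 36 had an optimal summit by the same rule, against 49.9% of all genes, and 12 of 36 were the nearest start of one, against 19.3%. Of the inhibitors 5 of 7 had a summit, of the RAS and ERK cascade 6 of 10, of receptor adaptors and the phosphatase 4 of 6, of the PI3K arm 3 of 4 and of the genes of ligand release 2 of 4. Counted as the nearest start of a summit, at any distance, these groups had 4 of 7, 5 of 10, 1 of 6, 1 of 4 and 1 of 4. Of the remaining family members 1 of 5 had one: Nrg2, at a peak nearest to Pura, while Erbb4, Nrg1, Nrg3 and Nrg4 had none. Errfi1, which encodes an inhibitor that binds EGFR and is induced by it, led with 9 summits, was the nearest start of 9, and its strongest had a signal of 51.6 in the pooled list, 30.05 in replicate 1 and 25.8 in replicate 2. Nras and Hras, which encode RAS proteins, had 7 and 5 summits and were the nearest start of 2 and 1, with the strongest of their own at 45.8 (55 bp from the start) and 40.6 (650 bp). Gab1, an adaptor, had 5 and was the nearest start of 5 (strongest 32.2, 164 bp from the start). Shc1, an adaptor, Rhbdf1, which encodes a partner of ADAM17, Map2k2, which encodes a kinase of the ERK cascade, and Pik3r1 had 4 each. Shc1 was the nearest start of none. Pik3r1, a regulatory subunit of PI3K, was the nearest start of 12 summits, most of them beyond the 100 kb window.

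The tissue label was read against marker genes by the same rule. Smooth muscle markers had a summit for 6 of 6 genes, squamous forestomach markers for 4 of 5 and glandular stomach markers for 5 of 7, against 49.9% of all genes. The counts were 1 of 4 for neural crest and glia, 2 of 4 for endothelium, 1 of 4 for blood and 2 of 4 for genes of other organs. With the conservative list they were 3 of 4 for blood and 4 of 7 for glandular stomach, and unchanged for the other groups. Some neighbouring genes of the squamous and of the glandular group shared their strongest peak, so these counts are not of separate peaks. A marker was itself the nearest start of a summit, at any distance, for 5 of 6 smooth muscle genes, 2 of 5 squamous, 0 of 7 glandular and 1 of 4 endothelial genes, against 19.3% of all genes, and for 0 of 4 genes in each of the remaining groups. That endothelial gene had no summit by the 100 kb rule, so it is not among those counted above. Peaks hold no expression level, so the share of each cell type in the tissue was not measured, and its part in the peaks at family genes was not tested. With the conservative list in place of the optimal one, 8 of the 10 family genes had a summit, against 48.2% of all genes, with Btc in and Areg out.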

How the data were processed

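Per the labels, EP300 was precipitated from stomach tissue of newborn mice in 2 libraries of 1 group. The deposited files are 5 narrowPeak lists on mm10, per the readme texts: each replicate, the pooled reads, and 2 IDR sets, optimal and conservative. The peak caller and aligner were not named in any source used here. The unit used is the signal value the authors deposited for each peak, whose scale differs between lists. The deposited score columns (scaled IDR score and q column) were read but carry no result. The deposited summit offset, another unit, is in bp from the peak start.

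The members, gene lists and motifs were chosen with earlier results of these data known. Summits were placed on GENCODE M21 genes (1-based coordinates), and 4 optimal peaks off the named chromosomes were left out. A replicate's value is that of its strongest peak with its summit inside the optimal peak. Conservative support means the optimal summit lies inside a conservative peak. Sets of 1 replicate hold its 7737 strongest peaks. Motifs were searched on both strands within 100 bp of each summit in GRCm38.p6, whose sequence equals 8 of 8 RefSeq promoter entries of member genes. Named genes are all members, nearest genes of their summits and the 8 pathway genes with the most summits. No significance test was made. Intervals are exact 95% binomial intervals. Python 3.11.15, pandas 2.3.3, scipy 1.17.1 and samtools 1.23.1 were used, and the counting was tested on simulated data. Alternatives were other peak sets, windows, overlap rules and a narrower motif window.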

Additional observations from a re-analysis of the deposited data

How the results depend on the processing

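Of the 40 comparisons of the summary counts and shares with an alternative setting, 31 stayed within 1.5 times the count or within the interval of the share, and 9 did not. The number of members with a summit was 5 with a 10 kb window (20.1% of all genes), 7 with 50 kb (36.7%), 9 with a window wider than 100 kb (64.7%), 7 among optimal peaks at or above the median signal (39.2%), 8 in the conservative list (48.2%), 7 in replicate 1 alone (54.6%) and 9 in replicate 2 alone (53.7%). The number of distinct summits, 30 in the report, was 18 in the conservative list, 11 among optimal peaks at or above the median signal and 13 with a 10 kb window. The number nearest to a member, 18 in the report, was 10 in the conservative list, 8 among optimal peaks at or above the median signal, and 9 to 23 with a replicate left out. Among the 11 optimal peaks at or above the median signal, 36.4% had an AP-1 motif and 90.9% lay inside a conservative peak. The same shares over all optimal peaks of that strength were not computed, so neither value has a background beside it. The stronger peaks and the narrower window take in fewer summits by construction. The conservative list holds 6972 peaks on named chromosomes, against 7733, and for it and the replicate sets the cause was not tested. Of 70 counts per gene, 38 stayed within 1.5 times and 32 moved. No paired analysis was possible because there is 1 group and no test. Depth is unknown, so whether a missing summit reflects low depth could not be read from the files.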

Other observations

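Of the 18 conservative summits in the windows of EGF family genes, 4 had no optimal summit inside their peak. They lay 70710 bp past the start of Btc (signal 22.9 in the pooled reads), 91848 bp upstream of Egfr (20.3), 26773 bp past the start of Erbb2 and nearest to Mien1 (18.0), and 99867 bp past the start of Hbegf and nearest to Pfdn1 (13.3). The 2 nearest to Btc and Egfr ranked 5426 and 4616 in replicate 2, and in replicate 1 the first ranked 18834 and the second had no summit inside it.

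Summits in repeat sequence, as soft-masked in the reference, numbered 6 of 30 at family loci (20%, exact 95% interval 7.71 to 38.6), against 10.01% of all optimal summits. In the Erbb3 window they were the promoter peak, the peak at Rpl41 and those 97091 and 99516 bp past the start. The others lay 24611 bp past the start of Tgfa and 20881 bp past that of Epgn.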
